A study of Mus musculus with 22 samples.

Results

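Cldn5, Pecam1, Flt1, Kdr, Cdh5, Ptprb, Tek, Slco1a4 and Abcb1a are 9 genes by which endothelial cells of brain vessels and the blood-brain barrier are commonly recognised. They were chosen by name, with earlier results of these data known. Of the 9, 6 (Cldn5, Pecam1, Flt1, Ptprb, Slco1a4 and Abcb1a) are in the table of 12596 genes. Kdr, Cdh5 and Tek were not analysed here. All 6 passed the authors' filter on the table, whose rule is not given in the sources used here.

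In a study of the mouse locus coeruleus, the main noradrenergic nucleus of the brain, RNA was sequenced from the hindbrain of 11 animals, each of which gave 2 libraries. All 4 groups come from the same cross, Th-cre with Slc6a2-eGFP/Rpl10a, on a C57Bl/6 background. In the Slc6a2-eGFP/Rpl10a line the regulatory sequence of the noradrenaline transporter gene drives the ribosomal protein L10a fused to a fluorescent tag, so that ribosome-bound RNA of noradrenergic cells can be immunoprecipitated (IP). The second library of an animal, the input, is RNA labelled as total hindbrain. The treatment label is hTyr, human tyrosinase, an enzyme of pigment synthesis, for 5 animals (IP_501, IP_502, IP_508, IP_509 and IP_510), and EYFP, a yellow fluorescent protein used as the control, for the other 6 (IP_504, IP_505, IP_506, IP_507, IP_511 and IP_512). An animal is named here by the label of its IP library, whose number its input library shares. The groups are therefore EYFP input (n = 6), hTyr input (n = 5), EYFP IP (n = 6) and hTyr IP (n = 5). Age, sex, the infused vector and the time from infusion to collection are not given in the sources used here.

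Endothelial cells line the vessels and, in the brain, seal the space between neighbouring cells with tight junctions, carry nutrients across by transporters and pump foreign compounds back to the blood. Astrocyte end-feet and pericytes sit on the outer face of the vessel wall, and Wnt signals from the surrounding tissue keep the barrier properties in place. The tag is directed at noradrenergic cells, and from which cells the vascular RNA in the IP came was not tested. In bulk RNA of this kind, fewer cells of a type and less RNA per cell cannot be told apart.

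The labelled cell type was checked against 14 noradrenergic genes, of which 13 are in the table. In IP against input 12 of the 13 rose and 0 fell in EYFP animals, and 12 rose and 0 fell in hTyr animals. Their summed level was 281 to 336 CPM (reads scaled to library size) over all input libraries, 791 to 1552 CPM in EYFP IP and 934 to 2456 CPM in hTyr IP. Noradrenergic RNA was therefore enriched in the IP, while genes of other cell types were still read there. Libraries held 12654489 to 25100142 reads in the table. The lowest depth was that of the IP library of hTyr animal IP_502, which was also the lowest hTyr IP library for each of the 6 vascular genes, so results with hTyr IP are given below without animal IP_502 as well.

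All 6 genes were lowly expressed. Their reads per library lay between 28 and 358, and ranked by mean log2 CPM among all genes Cldn5 stood at percentile 23.1, Slco1a4 at 11.3, Ptprb at 8.46, Pecam1 at 6.19, Flt1 at 3.91 and Abcb1a at 0.191. Per kilobase of exon the order in EYFP input was Cldn5 at 8.50 ± 2.17 RPKM, Slco1a4 at 1.05 ± 0.18, Pecam1 at 0.838 ± 0.126, Ptprb at 0.459 ± 0.030, Abcb1a at 0.411 ± 0.128 and Flt1 at 0.338 ± 0.073 (SD, n = 6). Cldn5, the main claudin of the barrier's tight junctions, was thus far above the other 5 per kilobase, where its short exons weigh in. Without division by length the gap was smaller, with a mean in EYFP input of 3.56 log2 CPM. Slco1a4 averaged 2.76 there and Ptprb 2.64. The RPKM ranges of Slco1a4 and Pecam1 overlapped, as did those of Ptprb and Abcb1a and those of Abcb1a and Flt1. No difference between these neighbours was tested. In EYFP IP the same scale gave Cldn5 9.64 ± 1.79, Slco1a4 1.32 ± 0.30, Abcb1a 0.891 ± 0.204, Pecam1 0.829 ± 0.174, Ptprb 0.440 ± 0.134 and Flt1 0.416 ± 0.089 RPKM (SD, n = 6). Abcb1a stood among the lower genes in input and beside Pecam1 in IP.

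On GRCm38 (mm10) Cldn5 spans chr16:18776847-18778262 on the plus strand, with 1416 exonic bases. Slco1a4 lies at chr6:141805440-141856199 on the minus strand (6414 exonic bases), and Abcb1a at chr5:8660077-8748575 on the plus strand (5480). Pecam1 lies at chr11:106654217-106750628 on the minus strand (6228), Flt1 at chr5:147561604-147726011 on the minus strand (13504), and Ptprb at chr10:116275523-116389535 on the plus strand (13333). Exons of Abcb1a overlap those of Gm42686 on the other strand, and whether reads were counted by strand is not given in the sources used here. Abcb1a also has a close copy, Abcb1b, and Slco1a4 has close relatives in the Slco1a family, so reads shared with them are an uncertainty in both values.

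The start regions of Cldn5, Slco1a4 and Flt1 are shown as examples of a junction gene, a transporter and a receptor of the same cell type. RefSeq start entries were matched for 6 of the 9 genes, 4 of them in the table. The fourth, Abcb1a, is not printed because its RefSeq window, chr5:8566841-8567090 on the plus strand, lies far upstream of the start at 8660077 given above. The 250 bases before the start were searched on both strands for AGGAAG or CGGAAG (the core bound by ETS factors), CTTTGA (TCF/LEF factors) and ACAATG (SOX factors), and matches are in capitals, a word on the other strand appearing as its reverse complement. The sequences are from RefSeq on GRCm38.p6, at chr16:18776597-18776846 (plus strand) for Cldn5, chr6:141856221-141856470 (minus strand) for Slco1a4 and chr5:147726012-147726261 (minus strand) for Flt1, each written 5′ to 3′ on the gene's strand.
Cldn5: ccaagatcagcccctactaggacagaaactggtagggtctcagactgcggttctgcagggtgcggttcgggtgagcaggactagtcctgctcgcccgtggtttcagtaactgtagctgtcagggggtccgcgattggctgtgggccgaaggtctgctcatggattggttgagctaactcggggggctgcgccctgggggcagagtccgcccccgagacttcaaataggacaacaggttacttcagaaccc
Slco1a4: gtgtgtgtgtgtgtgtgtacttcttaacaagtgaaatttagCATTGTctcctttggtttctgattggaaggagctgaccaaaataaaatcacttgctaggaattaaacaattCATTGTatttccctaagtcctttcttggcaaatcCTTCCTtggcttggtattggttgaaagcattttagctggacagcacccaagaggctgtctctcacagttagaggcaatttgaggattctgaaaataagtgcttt
Flt1: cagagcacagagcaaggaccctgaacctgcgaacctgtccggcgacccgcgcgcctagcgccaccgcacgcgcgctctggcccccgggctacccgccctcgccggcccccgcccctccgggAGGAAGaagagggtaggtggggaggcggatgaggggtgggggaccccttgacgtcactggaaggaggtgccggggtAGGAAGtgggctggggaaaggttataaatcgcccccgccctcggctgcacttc
The Cldn5 window held 0 of the words, Slco1a4 held 1 ETS and 2 SOX words, and Flt1 held 2 ETS words. The Abcb1a window, far from the start of the gene span, held 2 ETS and 2 TCF/LEF words. Among all 32851 start regions of that length 39.2% held an ETS word, 13.8% the TCF/LEF word and 10.7% the SOX word. A match describes letters and does not show binding, and no match says only that these letters are not in the window.

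**Figure D1:**
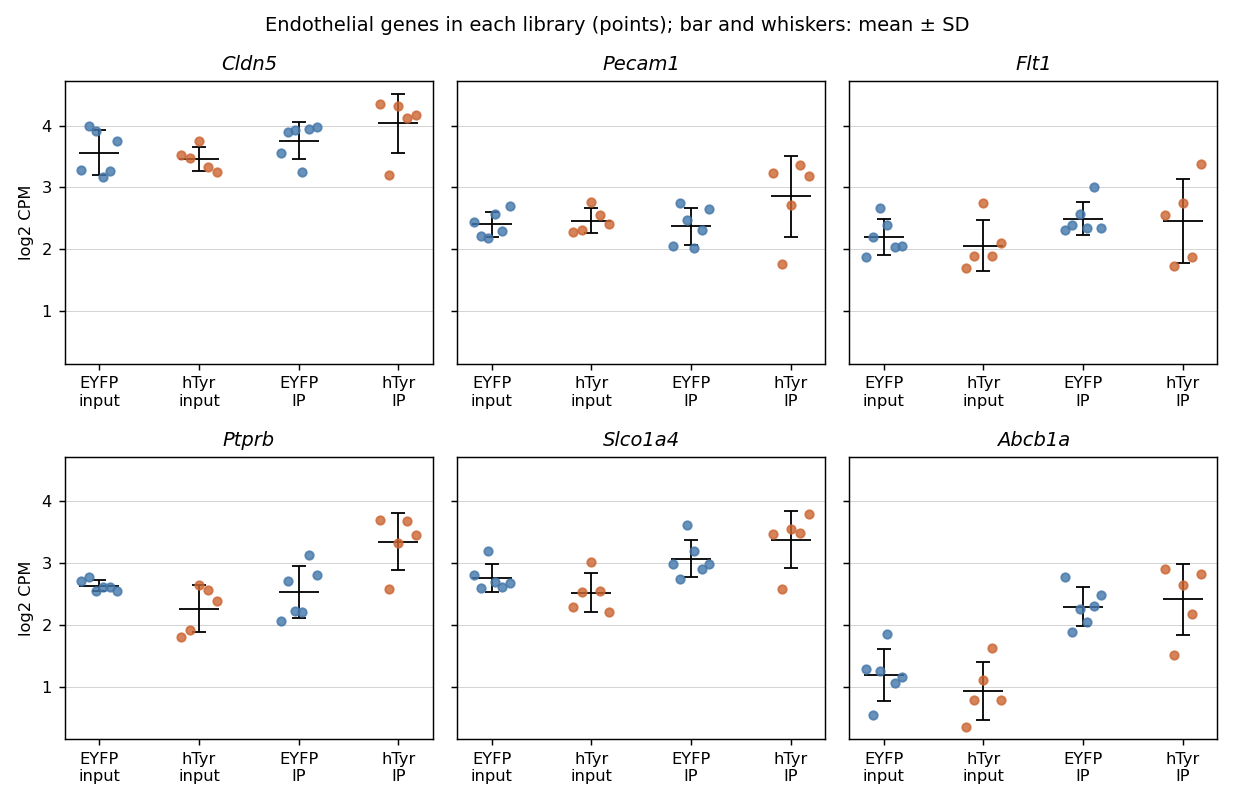
Level of each of the 6 genes (log2 CPM, vertical axis) in every library of the 4 groups, with the mean and SD. Abcb1a is higher in IP than in input in both treatments, while the hTyr IP points of every gene include the low library of animal IP_502.

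IP against input asks which RNAs came down with the tagged ribosomes. Among all genes 56.5% passed the threshold in EYFP animals (adjusted p under 0.05, limma with Benjamini-Hochberg adjustment over 12596 genes), 28.5% higher and 28.1% lower in IP. In hTyr animals 54.4% passed, 27.4% higher and 27% lower. Of the 6 vascular genes 1, Abcb1a, passed in EYFP animals, and 4, Abcb1a, Ptprb, Slco1a4 and Cldn5, passed in hTyr animals, all higher in IP and 0 lower. The median of the 6 log2 changes was 0.24 in EYFP animals (range -0.11 to 1.10) and 0.72 in hTyr animals (0.40 to 1.48), beside medians of -0.03 and -0.04 over all genes. Higher in IP were thus 1 of 6 beside 28.5% of all genes in EYFP animals, and 4 of 6 beside 27.4% in hTyr animals. The 6 genes are few and varied together in IP (below), and a difference from these shares was not tested. The treatments are set against each other by the interaction below, not by these counts.

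Cldn5, the junction protein that closes the barrier to small molecules, did not pass in EYFP animals. Its 6 EYFP input libraries had a lowest, median and highest value of 3.17, 3.52 and 3.99 log2 CPM, and the 6 EYFP IP libraries 3.24, 3.91 and 3.98. The groups covered nearly the same range. The difference was 0.19 (SE 0.17, adjusted p = 0.331), with IP above input in 5 of 6 animals, and 0.10 without animal IP_511 (adjusted p = 0.669). In hTyr animals IP_501, IP_502, IP_508, IP_509 and IP_510 Cldn5 read 3.52, 3.47, 3.75, 3.33 and 3.25 in input and 4.36, 3.20, 4.32, 4.13 and 4.18 in IP. Animal IP_502 lay below every input library, and the other 4 IP libraries lay above all 5. Cldn5 rose by 0.57 in IP (SE 0.19, adjusted p = 0.0163, higher in 4 of 5 animals). Without animal IP_502 the rise was 0.78 (adjusted p = 0.000544), whereas without animal IP_501, IP_509 or IP_510 the call was lost (adjusted p = 0.0628, 0.0539 and 0.0806).

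Slco1a4 is an organic anion transporter of the barrier endothelium that also carries bile salts and steroid conjugates. Its lowest, median and highest values were 2.59, 2.69 and 3.19 log2 CPM in EYFP input and 2.74, 2.99 and 3.61 in EYFP IP. The groups overlapped, yet IP lay above input in 6 of 6 animals, by 0.15 to 0.50. The difference of 0.31 (SE 0.15) missed the threshold (adjusted p = 0.0881), and with the animal as a block, which compares IP and input of the same animal, it passed (adjusted p = 0.0189). In hTyr animals, in the order given for Cldn5, input read 2.28, 2.54, 3.02, 2.55 and 2.21 and IP 3.47, 2.58, 3.55, 3.49 and 3.80. Only the IP library of animal IP_502 lay among the input values. Slco1a4 rose by 0.86 (SE 0.22, adjusted p = 0.00308, higher in 5 of 5 animals). The rise was 1.06 without animal IP_502 (adjusted p = 0.000564) and 0.68 without animal IP_510 (adjusted p = 0.0282). Removing from every library its trend with length and GC content ended the hTyr call (0.36, adjusted p = 0.146) and turned the EYFP difference to -0.04.

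Abcb1a, the efflux pump P-glycoprotein of the capillary wall, had the largest difference of the 6. Its lowest, median and highest values were 0.54, 1.20 and 1.85 log2 CPM in EYFP input and 1.88, 2.28 and 2.77 in EYFP IP. The 2 groups did not overlap, in a comparison where 56.5% of all genes were called. Abcb1a rose by 1.10 in IP (SE 0.21, adjusted p = 4.22e-04, higher in 6 of 6 animals). At percentile 0.191 of mean level it stands near the lower end of the filtered table. A gene so low in input may have passed the filter through its IP libraries alone, which would favour a rise. The filter rule is not given, so this cannot be told. In hTyr animals input read 0.35, 0.78, 1.10, 1.62 and 0.79 and IP 2.90, 1.51, 2.65, 2.18 and 2.82. Here the groups met, since the IP of animal IP_502 lay under the input of animal IP_509. The rise was 1.48 (SE 0.32, adjusted p = 8.26e-04, higher in 5 of 5 animals). It was 1.67 without animal IP_502 (adjusted p = 0.000589) and 1.22 without animal IP_501 (adjusted p = 0.00797). With a pseudocount of 5 CPM, which weighs on genes of so few reads, the rises were 0.45 and 0.60 and stayed past the threshold.

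Pecam1, an adhesion molecule at the contacts between endothelial cells that is also on platelets and leukocytes, did not pass in either treatment. Its lowest, median and highest values were 2.18, 2.37 and 2.70 log2 CPM in EYFP input and 2.02, 2.39 and 2.74 in EYFP IP, which are overlapping groups. The difference was -0.03 (SE 0.16, adjusted p = 0.890; 95% interval -0.36 to 0.30), and 0.04 after quantile normalization. In hTyr animals input read 2.27, 2.30, 2.77, 2.55 and 2.41 and IP 3.24, 1.77, 2.71, 3.37 and 3.19. Animals IP_501, IP_509 and IP_510 stood above every input library, animal IP_508 among them and animal IP_502 below all. The difference was 0.40 (SE 0.26, adjusted p = 0.201). Without animal IP_502 it was 0.63 and passed (adjusted p = 0.0194), and without animal IP_501 it was 0.25 (adjusted p = 0.490).

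Flt1, which encodes VEGF receptor 1, a receptor that binds VEGF tightly and limits its action on the vessel, did not pass either. EYFP input had a lowest, median and highest value of 1.87, 2.12 and 2.67 log2 CPM, and EYFP IP 2.32, 2.37 and 3.01. The highest value was that of animal IP_511, and the groups overlapped. The difference was 0.29 (SE 0.17, adjusted p = 0.141; 95% interval -0.06 to 0.64), and 0.16 without animal IP_511 (adjusted p = 0.448). In hTyr animals input read 1.69, 1.88, 2.74, 1.88 and 2.09 and IP 2.55, 1.73, 2.74, 1.87 and 3.38. Animals IP_501 and IP_510 were higher in IP by 0.86 and 1.29, and the other 3 were within 0.15 of their input. The difference was 0.40 (SE 0.30, adjusted p = 0.266; 95% interval -0.23 to 1.02). It was 0.54 without animal IP_502 (adjusted p = 0.175) and 0.175 without animal IP_510 (adjusted p = 0.654).

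Ptprb encodes VE-PTP, a receptor phosphatase that restrains TIE2 and VEGF receptor signalling and keeps endothelial junctions closed. EYFP input was tight, with a lowest, median and highest value of 2.54, 2.61 and 2.78 log2 CPM, and EYFP IP was wider, at 2.07, 2.47 and 3.14. IP lay on both sides of input. The difference was -0.11 (SE 0.17, adjusted p = 0.604; 95% interval -0.46 to 0.25), with IP higher in 2 of 6 animals. In hTyr animals input read 1.81, 1.92, 2.64, 2.57 and 2.39 and IP 3.70, 2.58, 3.33, 3.68 and 3.46. The IP of animal IP_502 lay under the input of animal IP_508, and the other 4 IP libraries were above all input. Ptprb rose by 1.08 (SE 0.23, adjusted p = 7.53e-04, higher in 5 of 5 animals). The rise was 1.19 without animal IP_502 (adjusted p = 0.000315) and 0.88 without animal IP_501 (adjusted p = 0.00766).

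**Figure D2:**
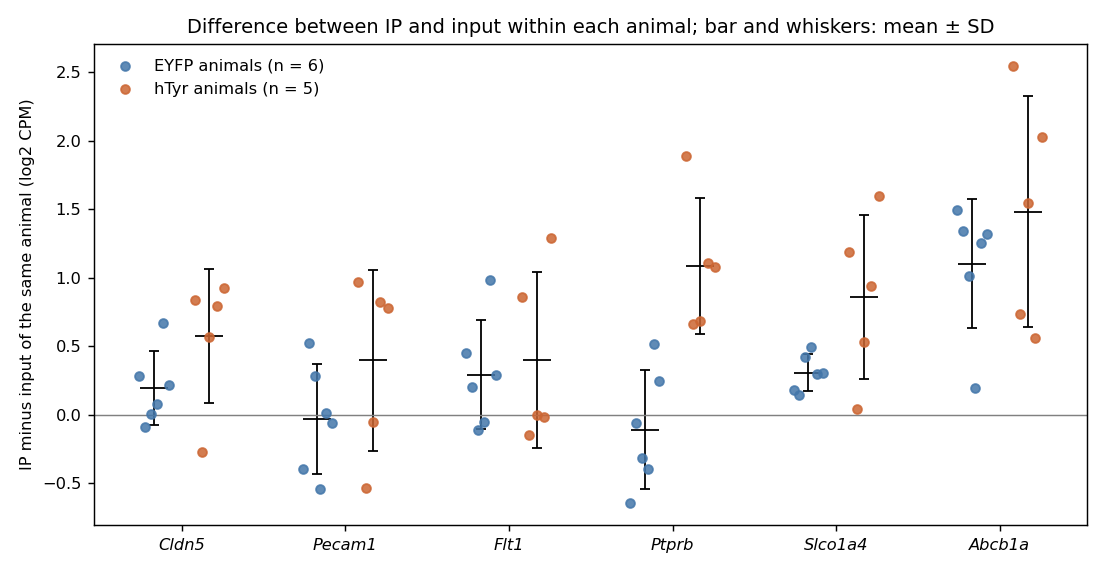
IP minus input within each animal (log2 CPM, vertical axis) for the 6 genes, EYFP animals (n = 6) beside hTyr animals (n = 5), with mean and SD. For Ptprb the hTyr animals lie between 0.66 and 1.89 and the EYFP animals between -0.64 and 0.52. For the other 5 genes the treatments overlap. How many of all genes separate in this way was not counted, and Ptprb did not pass in the interaction.

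The difference of IP from input was then set between treatments, which is the interaction in a fit over all 22 libraries. None of the 6 genes passed (0.00794% of all genes did, 1 of 12596), 2 of them had an unadjusted p under 0.05, as did 3.31% of all genes (417), and voom on the recovered reads also called 0 of the 6. All 6 estimates were positive, with a median of 0.40 beside 0.00 over all genes. Ptprb had the largest estimate, 1.19 (SE 0.29, 95% interval 0.59 to 1.79, unadjusted p = 3.71e-04, adjusted p = 0.455). The within-animal differences of Ptprb averaged 1.08 ± 0.50 in hTyr animals (SD, n = 5) and -0.11 ± 0.43 in EYFP animals (SD, n = 6). With the animal as a block the adjusted p of Ptprb was 0.129, and without animal IP_502 the estimate was 1.30 (adjusted p = 0.348). Slco1a4 came next with 0.55 (SE 0.27, unadjusted p = 0.0497, adjusted p = 0.996). The remaining estimates were 0.43 for Pecam1, 0.38 for Cldn5, 0.38 for Abcb1a and 0.10 for Flt1, and Flt1 turned to -0.01 without animal IP_501 and -0.12 without animal IP_510. Without animal IP_502 the estimates were 0.66 for Pecam1, 0.59 for Cldn5, 0.76 for Slco1a4, 0.57 for Abcb1a and 0.24 for Flt1, each with adjusted p = 1. Leaving out each animal in turn moved Ptprb between 0.991 and 1.318. Pecam1 was lowest without animal IP_501 (0.283), Cldn5 and Slco1a4 without animal IP_510 (0.29 and 0.369), and these 3 were highest without animal IP_502. The estimate of Abcb1a ran from 0.114 without animal IP_501, and 0.198 without animal IP_507, to 0.611 without animal IP_509.

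hTyr against EYFP within the IP asks how RNA recovered with the tagged ribosomes differed after the infusion. None of the 6 genes passed (0.0556% of all genes did, 7 of 12596), 1 had an unadjusted p under 0.05, as did 6.19% of all genes (780), and voom also called 0. That gene was Ptprb. The 6 EYFP IP libraries of Ptprb had a lowest, median and highest value of 2.07, 2.47 and 3.14 log2 CPM, and 4 of the 5 hTyr libraries, at 3.33 to 3.70, were above all of them. Animal IP_502, at 2.58, lay within the EYFP range. The difference of Ptprb was 0.82 (SE 0.23, 95% interval 0.34 to 1.31, unadjusted p = 0.00241, adjusted p = 0.533). It was 1.01 without animal IP_502 (adjusted p = 0.316) and 0.73 without animal IP_504 (adjusted p = 0.472).

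The other 5 gave intervals that held 0. Pecam1 differed by 0.49 (95% interval -0.06 to 1.03), Slco1a4 by 0.31 (-0.12 to 0.74), Cldn5 by 0.28 (-0.13 to 0.69), Abcb1a by 0.12 (-0.41 to 0.65) and Flt1 by -0.04 (-0.59 to 0.52). Flt1 turned to 0.04 under quantile normalization and to 0.14 without animal IP_502. Without animal IP_502 the difference was 0.76 for Pecam1, 0.51 for Slco1a4, 0.49 for Cldn5 and 0.35 for Abcb1a, all with adjusted p of 0.677 or more. The lowest values over animals left out were 0.357 for Pecam1, 0.205 for Slco1a4, 0.177 for Cldn5 and 0 for Abcb1a. Intervals of this width leave room for changes of Pecam1 by up to about 1 on the log2 scale.

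In input, the RNA of the whole tissue piece, none of the 6 genes passed (0.00794% of all genes did, 1 of 12596), 1 had an unadjusted p under 0.05, as did 3.03% of all genes (382), and voom again called 0. That 1 was Ptprb, now lower in hTyr. Its EYFP input libraries lay between 2.54 and 2.78 log2 CPM, and hTyr animals IP_501, IP_502 and IP_510, at 1.81, 1.92 and 2.39, lay below them, while IP_508 and IP_509 lay within. The difference was -0.37 (SE 0.16, 95% interval -0.71 to -0.04, unadjusted p = 0.0320, adjusted p = 0.990). The other estimates were -0.26 for Abcb1a, which turned to 0.05 under quantile normalization, -0.24 for Slco1a4, -0.14 for Flt1, -0.10 for Cldn5 and 0.06 for Pecam1, each with adjusted p = 0.990. The estimate of Pecam1 was -0.02 without animal IP_508. The 95% interval of Cldn5 ran from -0.43 to 0.24 and that of Pecam1 from -0.24 to 0.36.

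**Figure D3:**
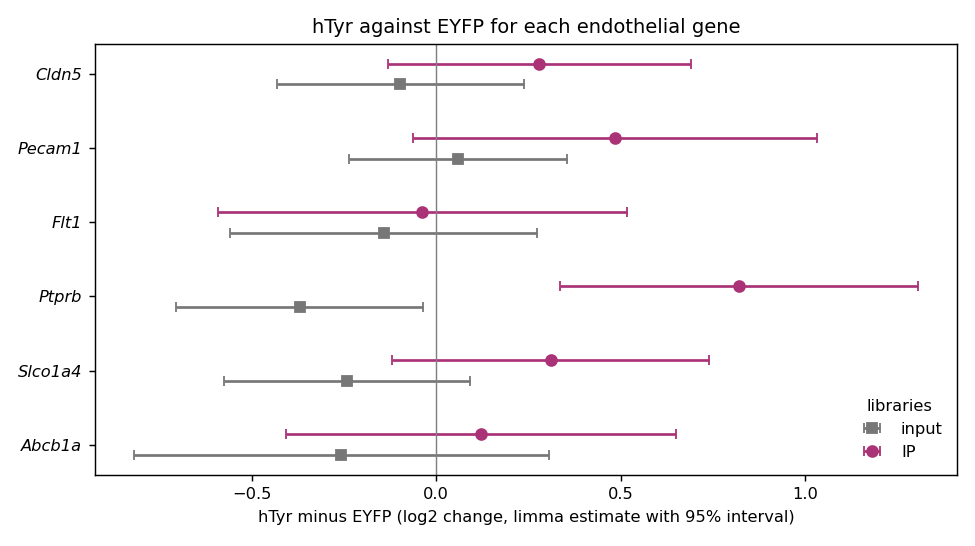
hTyr minus EYFP (log2 change, horizontal axis) for the 6 genes in input and in IP, as limma estimates with 95% intervals. The intervals of Ptprb alone leave out 0, below it in input (-0.71 to -0.04) and above it in IP (0.34 to 1.31), and none of these differences passed the adjusted threshold. The input estimate of Abcb1a and the IP estimate of Flt1 change sign under quantile normalization.

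The 6 genes varied together from animal to animal in IP. After subtracting group means, 15 of their 15 pairs had a positive Pearson's r over the 11 IP libraries, from 0.252 to 0.844 with a median of 0.572. The highest were Cldn5 with Pecam1 (0.844), Cldn5 with Ptprb (0.786) and Pecam1 with Ptprb (0.784). In the 11 input libraries 13 of 15 pairs were positive, from -0.46 for Cldn5 with Abcb1a to 0.74 for Flt1 with Slco1a4, with a median of 0.373. Genes of a library share its depth and its scaling, and animal IP_502 is among the 11, so these values are descriptions. The genes most like the mean of the 6 in IP were Rab13 (r = 0.923), Skor1 (0.910), Tifab (0.885), Trim28 (0.876) and Ltbp4 (0.874), and in input Colec12 (0.942), Sgpl1 (0.930), Lbr (0.928), Cntn2 (0.924) and Cldnd1 (0.901), each over 11 libraries. None of these 10 is on the lists of vascular or cell type genes used here. They were picked as the highest among all genes over few libraries, and how high r gets for unrelated genes was not tested.

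The summed level of the 6 genes was 32.3 to 42.7 CPM in EYFP input, 28.5 to 42.9 in hTyr input, 35.8 to 48.9 in EYFP IP and 30.1 to 69.0 in hTyr IP. In hTyr IP the 4 libraries other than IP_502 lay between 59.4 and 69.0 CPM, above every EYFP IP library, and IP_502, at 30.1, lay below every one. The same sum over 17 other endothelial genes, among them Vwf, Esam and Cd34, was 277 to 322, 282 to 316, 246 to 301 and 234 to 328 CPM in these groups, so the treatments overlapped in IP. Over 9 genes of mural cells, the pericytes and smooth muscle cells of the vessel wall, it was 196 to 280, 186 to 227, 202 to 298 and 207 to 251 CPM. Zic1 alone averaged 6.85 log2 CPM in EYFP input and 6.66 in EYFP IP, beside 3.81 and 4.05 over the 9 genes. The mural sum thus leans on 1 gene, and from which cells its RNA came was not tested. Over 5 genes of blood cells, mostly globins, it was 1130 to 2586, 1093 to 3008, 871 to 1951 and 617 to 2670 CPM, and it was lowest in hTyr IP in animal IP_501, a library with high vascular genes. The part of vessel or blood content in the differences of the 6 genes was not tested.

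Other genes of endothelial cells did not share one direction in IP, and neither did all genes. Of all genes 28.5% rose and 28.1% fell in EYFP animals, and 27.4% and 27% in hTyr animals. These shares stand beside each count in this paragraph. Of 28 listed, 17 are in the table, and in EYFP animals 4 rose, 5 fell and 8 did not pass, with a median of 0.07. In hTyr animals 3 rose, 3 fell and 11 did not pass, with a median of 0.09. Vwf, the clotting protein stored by endothelium, rose by 0.49 (SE 0.15, adjusted p = 0.0128) in EYFP animals and by 0.78 (SE 0.22, adjusted p = 0.00591) in hTyr animals, and its EYFP call was lost without animal IP_511 (0.32, adjusted p = 0.0704) or IP_512. From each list the genes with the largest called change in a treatment are named, which does not show that they differed between treatments. Ramp2, a partner of the adrenomedullin receptor, fell by 0.46 (adjusted p = 0.00879) in EYFP animals and gave -0.35 (adjusted p = 0.143) in hTyr animals. Cd34, a surface sialomucin, fell by 0.43 (adjusted p = 0.0479) in EYFP animals and gave -0.35 (adjusted p = 0.311) in hTyr animals. The EYFP call of Cd34 was lost with voom (adjusted p = 0.0536), with quantile normalization, with one spread over all libraries, or without animal IP_504, IP_506, IP_507 or IP_512, and Cd34 passed in hTyr animals with the length and GC trend removed (-0.74, adjusted p = 0.0315). In hTyr animals Tm4sf1 rose by 0.69 (adjusted p = 0.00626), a call lost with that trend removed (0.40, adjusted p = 0.0879). In EYFP animals Tm4sf1 gave 0.28 (adjusted p = 0.0814) and passed with the animal as a block (adjusted p = 0.0494) or without animal IP_504 (0.34, adjusted p = 0.0491). Adgrf5 rose by 0.57 (adjusted p = 0.00672) in hTyr animals. Its EYFP rise of 0.35 (adjusted p = 0.0455) was lost with median centring, with the trend removed, or without animal IP_507, IP_511 or IP_512. Of 12 endothelial transcription factors 1 rose and 6 fell in EYFP animals (median -0.33), and 1 rose and 5 fell in hTyr animals (median -0.21). Tal1 (-0.52 and -0.58), Lef1 (-0.50 and -0.64) and Heyl (-0.49 and -0.70) fell in EYFP and hTyr animals. From which cells the RNA of these factors came was not tested.

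Of 18 barrier transporters 7 rose and 4 fell in EYFP animals (median 0.17), and 6 rose and 4 fell in hTyr animals (median 0.14). Among all genes 28.5% rose and 28.1% fell in EYFP animals, and 27.4% and 27% in hTyr animals. Abcg2, an efflux pump that works beside Abcb1a, rose by 0.74 (SE 0.13, adjusted p = 1.95e-04) in EYFP animals and gave 0.38 (adjusted p = 0.141) in hTyr animals, where it turned to -0.22 with the length and GC trend removed. Tfrc, the transferrin receptor, rose by 0.62 in EYFP and 0.96 in hTyr animals, the first call being lost after removal of the length and GC trend. Slc16a1, a lactate carrier, rose by 0.51 and 0.61 in EYFP and hTyr animals, and Slc39a10, a zinc carrier, by 0.48 and 0.78. Slco1c1, a thyroid hormone carrier, rose by 0.48 and 0.83, the EYFP call being lost with the trend removed or without animal IP_506, IP_507 or IP_512. Of 16 junction genes 7 rose and 1 fell in each treatment (medians 0.13 and 0.14). Tjp1, the scaffold ZO-1 to which claudins bind, rose by 1.03 and 1.18 in EYFP and hTyr animals, Mllt4 (afadin) by 0.92 and 0.99, and Ctnnb1 (beta-catenin) by 0.91 and 0.97. These scaffolds are also made by neurons and glia, as are several of the transporters.

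In the VEGF and angiopoietin pathway, which signals through Flt1 and is held back by Ptprb, 15 genes are in the table. In EYFP animals 6 rose and 7 fell (median 0.12), and in hTyr animals 6 rose and 6 fell (median 0.05). Of all genes 28.5% rose and 28.1% fell in EYFP animals, and 27.4% and 27% in hTyr animals. The guidance ligands Sema3a (1.50 and 1.81) and Sema3e (1.31 and 1.81) rose in EYFP and hTyr animals, as did Sema3c (1.35 and 1.65). Angpt1, the ligand that activates TIE2, rose by 0.91 (SE 0.17, adjusted p = 2.49e-04) in EYFP animals and by 1.66 (SE 0.21, adjusted p = 6.17e-06) in hTyr animals. Of the 14 genes of the Wnt and norrin pathway, by which the tissue induces the barrier, 0 rose and 10 fell in EYFP animals, and 0 rose and 7 fell in hTyr animals, with medians of -0.37 and -0.37, beside 28.1% and 27% of all genes lower in IP. Lef1 is on this list as well as among the transcription factors. The ligand Wnt7b fell by 0.54 and 0.73 and the feedback inhibitor Nkd1 by 0.52 and 0.81. The co-receptor Lrp5 fell by 0.55 and 0.50 in EYFP and hTyr animals. Its EYFP call was lost without animal IP_507 (-0.40, adjusted p = 0.0522), and its hTyr call with the trend removed (-0.26, adjusted p = 0.247) or without animal IP_501, IP_502, IP_508 or IP_509 (adjusted p = 0.0565 to 0.139). Adgra2, which endothelium needs to sense Wnt7 ligands, fell by 0.48 and 0.74, the EYFP call being lost with the trend removed (-0.25, adjusted p = 0.0523). Transcripts of this pathway are made in neurons and glia as well as in vessels.

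**Figure D4:**
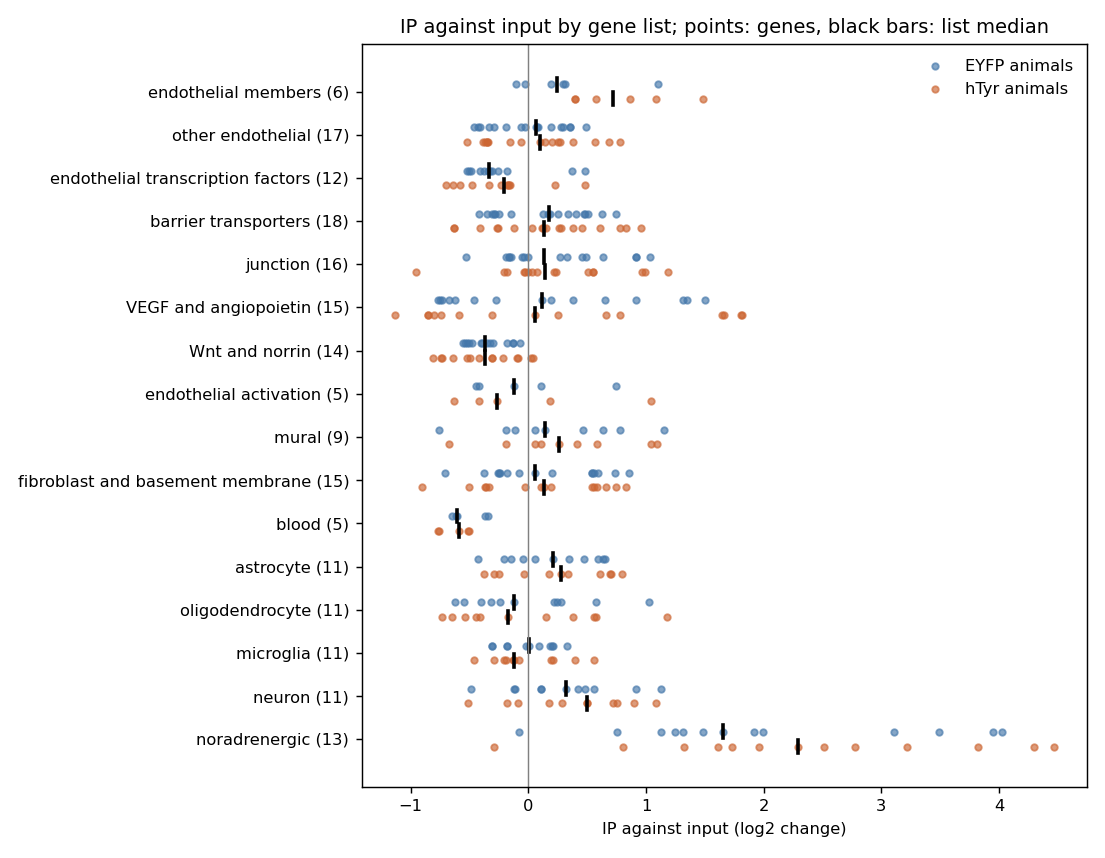
IP minus input (log2 change, limma estimates) for the genes of each list in EYFP and in hTyr animals, each point a gene. The 6 vascular genes have medians of 0.24 and 0.72, the Wnt and norrin pathway -0.37 and -0.37, and the noradrenergic genes 1.66 and 2.29.

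Cell types around the vessel gave mixed changes, as did all genes. Of all genes 28.5% rose and 28.1% fell in EYFP animals, and 27.4% and 27% in hTyr animals. Of 9 mural genes 4 rose and 1 fell in each treatment (medians 0.14 and 0.26). Ndufa4l2, a pericyte marker, rose by 1.15 and 1.04 and Myh11, the smooth muscle myosin, by 0.78 and 1.09, while Notch3 fell by 0.76 and 0.68 in EYFP and hTyr animals. The hTyr call of Notch3 was lost with the length and GC trend removed (-0.28, adjusted p = 0.106, and 0.0688 with the animal as a block as well). Of 15 genes of perivascular fibroblasts and basement membrane 6 rose and 1 fell in EYFP animals, and 5 rose and 1 fell in hTyr animals (medians 0.06 and 0.13). Of 5 blood genes 0 rose and 2, Hba-a1 and Hba-a2, fell in each treatment, by 0.61 and 0.60 in EYFP and 0.76 and 0.77 in hTyr animals. These 2 are near-identical copies, so their reads may be shared, and both calls were lost without animal IP_504 or IP_506 in EYFP and without IP_502, IP_509 or IP_510 in hTyr animals, where removal of the length and GC trend also ended them. Of 5 genes of endothelial activation 1 rose and 2 fell in each treatment (medians -0.12 and -0.27). Vcam1 rose by 0.75 and 1.04 in EYFP and hTyr animals. Lower in IP were Ifitm3 (-0.44 and -0.42) and Tnfrsf1a (-0.42 and -0.63), the EYFP call of Ifitm3 being close to the threshold (adjusted p = 0.0463). Of 11 astrocyte genes 4 rose and 1 fell in EYFP and 5 rose and 2 fell in hTyr animals, of 11 oligodendrocyte genes 3 and 5 and then 4 and 5, of 11 microglial genes 0 and 1 and then 2 and 1, and of 11 neuronal genes 6 and 1 and then 7 and 1.

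Between treatments 0 of the 182 other genes on the vascular and cell type lists passed in IP and 0 in the interaction by limma, with 0 and 0 called by voom. At an unadjusted p under 0.05 were 13 of them in IP and 10 in the interaction, or 7.14% and 5.49%, beside 6.19% and 3.31% of all genes. In input 1 of the 182 passed, the noradrenaline transporter gene Slc6a2 (-0.91, adjusted p = 0.0339). The 17 other endothelial genes in the table had a median of 0.03 in IP between treatments, with a range of -0.61 to 0.35. Those with the smallest unadjusted p were Esam, a junctional adhesion molecule, at -0.61 (SE 0.22, unadjusted p = 0.0141, adjusted p = 0.754), and Rasip1 at -0.31 (adjusted p = 0.803). The mural genes Cspg4 and Rgs5 gave -0.39 (adjusted p = 0.787) and 0.27 (adjusted p = 0.791). In input the VEGF pathway genes Apln, a ligand of endothelial tips, and Angpt1 gave 0.20 and -0.52, and Vwf gave -0.38, each with adjusted p = 0.990. Angpt1, whose receptor is a target of the Ptprb phosphatase, had an interaction estimate of 0.75 (SE 0.24, unadjusted p = 0.00477, adjusted p = 0.996).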

How the data were processed

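The authors deposited log2 values in one table, with 12596 genes in rows and 22 libraries in columns. Per the submitters' processing notes, STAR, featureCounts and mm10 were used, and versions, strand setting, treatment of multi-mapping reads, filter and normalization are not given in the sources used here. Tested on the values, the deposited log2 values are log2(CPM + pseudocount) with a pseudocount that averaged 2 reads, and turned back into reads they were whole in 100% of cases, within 0.02 of a read. A difference on this scale understates changes of low genes. Depth in the table was 12654489 to 25100142 reads per library, and reads outside it are unknown. Intervals on reads cover counting error only.

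Genes were tested with limma 3.58.1 in R 4.3.3 (mean-variance trend, Benjamini-Hochberg adjustment over all genes, threshold 0.05), on the deposited values, in the libraries of each comparison without a block. No recovered reads entered the main tests. The 11 animals are separate, and each gave 1 IP and 1 input library. RPKM values divide recovered CPM by exon length in GENCODE vM21 (GRCm38), matched by symbol for 12373 genes (98.2%). Summed CPM add recovered CPM over a list. IP and input with the same animal number come from the same animal, and Pearson's r of their deviations from group means averaged 0.448 (0.279 to 0.626) over 11 pairs, beside -0.0428 between animals. The fit with the animal as replicate block was an alternative.

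The genes and the 15 other lists were chosen with earlier results of these data known. All listed vascular genes in the table are named. From each other list the text draws on up to 3 genes with the largest change among those past the threshold, or, where none passed between treatments, up to 2 with the smallest p, and the 5 genes most like the 6. Symbols Mllt4 and Ptrf stand in the table for Afdn and Cavin1. Other alternatives were no trend, quantile normalization, median centring, a pseudocount of 5 CPM, a filter leaving the upper 75% of genes, voom on recovered reads, one spread over all libraries, removal of length and GC trends (loess, span 0.4), an absolute log2 change of at least 1, and leaving out each animal. Self-tests ran on simulated data. Figures were drawn with Python 3.11.15.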

Additional observations from a re-analysis of the deposited data

Results flagged for a closer look

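Of 24 groups of values examined (6 genes in 4 groups), 4 had a library whose gap to its nearest neighbour took an unusually large share of the group's range, where chance gives about 1.2. Cldn5 was lowest in hTyr IP at 3.20 log2 CPM in animal IP_502 (116 reads), the next library standing at 4.13. Slco1a4 was lowest in the same library, at 2.58 (75 reads) with the next at 3.47. Both come from the library of lowest depth, 12654489 reads, and the part of depth was not tested. Flt1 was highest in EYFP IP at 3.01 in animal IP_511 (153 reads), with the next library at 2.56. Slco1a4 was highest in EYFP input at 3.19 in animal IP_506 (167 reads), with the next at 2.80.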

How the results depend on the processing

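The number of vascular genes called in IP against input was 1 in EYFP animals and 2 with the animal as replicate block, alone or with the length and GC trend removed. The second gene was Slco1a4 with the block alone and Cldn5 (0.29, adjusted p = 0.0194) with the trend removed too. Among all genes 3587 of 12596 were called higher in IP in EYFP animals. With the block it was 3964, and 3635 of 12373 with the trend removed as well. In hTyr animals 4 vascular genes were called, and 2 when an absolute log2 change of at least 1 was asked. Among all 12596 genes 3454 were called higher in IP in hTyr animals, and 684 at that change. Leaving out 1 animal gave 3 to 5 vascular genes in hTyr animals, beside 3085 to 3282 of all genes higher in IP. With the length and GC trend removed Slco1a4 no longer passed in hTyr animals (0.362, adjusted p = 0.146, and 0.0970 with the block as well). The block changed no other call of the 6 genes. Between treatments and in the interaction the count was 0 in every setting run.

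Estimates that changed sign were all of genes that did not pass. Pecam1 in EYFP IP against input was 0.042 with quantile normalization and 0.008 with the length and GC trend removed, with or without the replicate block, and -0.14 to 0.074 over animals left out. Slco1a4 in the same comparison was -0.04 with the trend removed, with or without the block. Flt1 in IP between treatments was 0.04 with quantile normalization, 0.006 with a pseudocount of 5 CPM, 0.007 with voom, 0.054 with the trend removed, and -0.269 to 0.143 over animals left out. Abcb1a in input was 0.052 with quantile normalization, and Abcg2 in hTyr IP against input -0.218 with the trend removed, with or without the block. Over animals left out Pecam1 in input ran from -0.017 to 0.12 and the Flt1 interaction from -0.119 to 0.243. The causes were not tested. With the upper 75% of genes by mean value, Cldn5 alone remained, and only in IP between treatments, so that filter gave no value for the other vascular genes. At 28 to 358 reads per gene and library, depth limits the precision of all 6.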
